A study of Mus musculus with 21 samples.

Results

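The EGF receptor family and its ligands were followed through RNA sequencing of mouse epidermis: 6 ligand genes (Areg, Ereg, Hbegf, Tgfa, Btc and Epgn) and 3 receptor genes (Egfr, Erbb2 and Erbb3). These 9 genes were taken by symbol from the 49315 genes listed in the count files, and all 9 were found and passed the filter on low counts. The series held 21 samples of epidermis in 7 groups of 3, but in 13 files every gene was listed at 0. Gene expression could therefore be compared only at 6 months, between 3 libraries labelled control-strain specific (genotype WT) and 3 labelled K14CreTfap2afl/flTfap2bfl/fl, called here the libraries labelled double cKO (conditional knockout of Tfap2a and Tfap2b, which encode the transcription factors AP-2alpha and AP-2beta). The only other libraries with counts were 2 of epidermis labelled K14CreTfap2bfl/fl, from mice 3 weeks old, which had no control of that age among the libraries with counts. K14Cre expresses Cre recombinase from the keratin 14 promoter in basal keratinocytes, so immune cells, melanocytes and other cells of the tissue would keep both genes. Whether the controls carried floxed alleles or Cre was not given in the sources used here.

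The receptors of this family are tyrosine kinases that pair on the cell surface when a ligand binds. The ligands are made as membrane-anchored precursors and are released by metalloproteases, so keratinocytes can stimulate themselves and their neighbours. In epidermis the EGF receptor is known for sustaining proliferation of basal keratinocytes, restraining their differentiation and driving repair, and its ligand genes are themselves among its targets.

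The 8 libraries held 11318181 to 17746284 counts. The targeted genes did not pass the test and Tfap2a was not lower: it was at 165, 140.3 and 210.1 counts per 1000000 (CPM) in control replicates 1 to 3 and at 229, 213 and 309 CPM in libraries labelled double cKO, and Tfap2b was at 57.3, 86.6 and 71.0 against 53.8, 57.2 and 56.9 CPM (edgeR adjusted p 0.118 and 0.111). Counts over the whole gene include reads outside any deleted exon, and directions are given for the libraries as labelled. Counts in genes of odorant and vomeronasal receptors were taken here as a measure of background. In these genes control replicates 1 and 2 held 1.61 and 3.19 counts per kb of exon against 0.107 to 0.195 in the other 4 libraries of 6 months. Over the exons of the 9 genes this density would give at most 2.33% of a gene's counts in a control library. The labels do not say that the samples came from separate animals, so the tests measure the spread between these samples. In bulk RNA, fewer cells of a type and less RNA per cell cannot be told apart.

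At 6 months 3 of the 6 ligand genes were lower in libraries labelled double cKO, and no difference passed the test for the 3 receptor genes. Epgn, Btc and Areg fell 4.43-fold, 6.96-fold and 2.40-fold. Ereg was lower in every library but did not pass the threshold, Hbegf overlapped between the groups, and Tgfa had almost the same mean in both. By edgeR's quasi-likelihood test, with Benjamini-Hochberg adjustment over the 17755 genes tested and a threshold of 0.05, 3 of the 9 genes were lower and none was higher, while 8.59% of all genes tested were lower and 6.26% higher (14.9% either way). At an unadjusted p under 0.05, 5690 genes differed. The median log2 fold change was -1.52 over the 6 ligand genes and -0.05 over the 3 receptor genes, against -0.035 over all genes tested.

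How many of the 9 genes passed depended on the fit, as did the share of all genes. The count was 4 with the DESeq2 Wald test (10.9% of all genes lower), with at least 10 counts in every library (9.99%), without a filter (6.74%) and without control replicate 1 (4.39%), with Ereg or Hbegf as the gene added. It was 5 without control replicate 3 (22.9%), with both added. It was 2, with Areg lost, against a fold change of 1.5 (2.19%) and without control replicate 2 (4.18%) or replicate 2 of the libraries labelled double cKO (2.82%). Without replicate 1 of the latter only Epgn passed (1.67%).

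**Figure D1:**
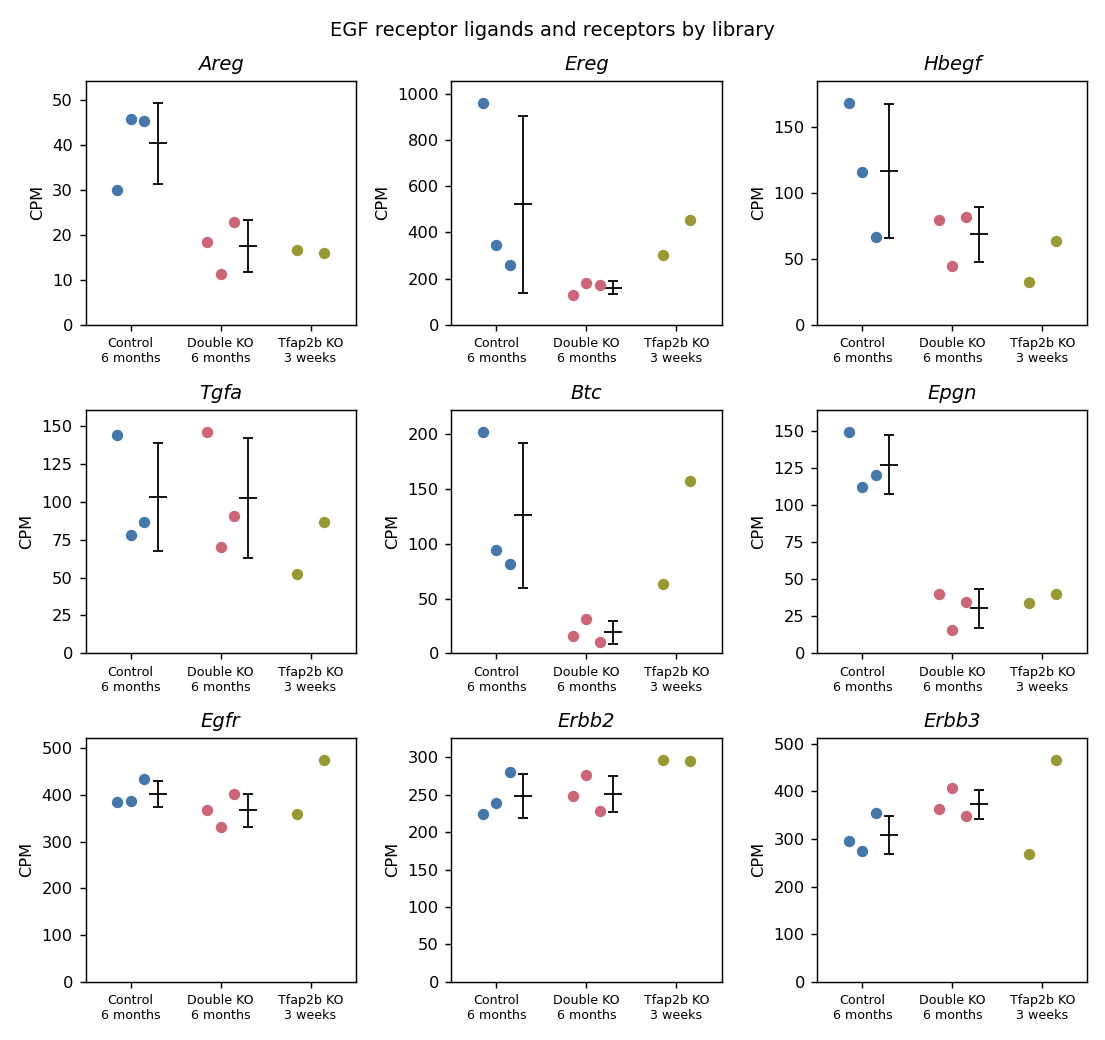
Levels in CPM (y axis from 0) of the 9 genes in each library with counts. Points are libraries, and bars are the mean and SD of the 3 control or 3 double cKO libraries of 6 months. All 3 libraries labelled double cKO lie below all 3 controls for Areg, Ereg, Btc and Epgn, and the groups overlap for the other 5 genes.

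Epgn encodes epigen, a ligand of the EGF receptor made by epithelia. It was at 150, 112 and 120.3 CPM in control replicates 1 to 3 and at 40.3, 15.7 and 34.8 CPM in libraries labelled double cKO, on 231 to 1848 counts. The lowest control was thus well above the highest library labelled double cKO, and replicate 2 of the latter was the lowest. The mean was 128 ± 19.7 against 30.3 ± 12.9 CPM (SD, n = 3 per group), and the fit gave a log2 fold change of -2.15 (standard error 0.31; edgeR adjusted p 0.00483). Epgn stayed past the threshold in all 17 alternative fits, at -2.35 to -1.80.

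Btc encodes betacellulin, which binds both the EGF receptor and ERBB4. It was at 203, 94.4 and 81.4 CPM in the controls and at 15.7, 31.2 and 10.4 CPM in libraries labelled double cKO, on 185 to 2439 counts. Control replicate 1 held more than the other controls, and the groups did not overlap. The means were 126 ± 66.5 and 19.1 ± 10.8 CPM (SD, n = 3 per group). The log2 fold change was -2.80 (standard error 0.52; edgeR adjusted p 0.0177), the largest of the 9 genes. With replicate 1 of the libraries labelled double cKO left out it was -2.62 and no longer past the threshold (edgeR adjusted p 0.0781). With control replicate 1 left out it was -2.27 and still past it.

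Areg encodes amphiregulin, an EGF receptor ligand that keratinocytes release in culture and after injury. It was at 30.1, 45.9 and 45.3 CPM in the controls and at 18.5, 11.3 and 22.9 CPM in libraries labelled double cKO, on 166 to 696 counts. The groups did not overlap, and control replicate 1 was the control nearest to the other group. The means were 40.4 ± 8.97 and 17.6 ± 5.86 CPM (SD, n = 3 per group), and the log2 fold change was -1.27 (standard error 0.27; edgeR adjusted p 0.0168). The call did not hold without control replicate 2 or without replicate 1 or 2 of the libraries labelled double cKO, at -1.25 to -0.996 with edgeR adjusted p-values of 0.0545 to 0.0774.

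Ereg encodes epiregulin, a ligand of the EGF receptor and ERBB4. It was at 958, 346 and 257 CPM in the controls and at 128, 182 and 173 CPM in libraries labelled double cKO, on 1767 to 11541 counts. All 3 libraries labelled double cKO were below all 3 controls, but control replicate 1 held more than 2 times the level of the other controls. The means were 521 ± 382 and 161 ± 28.9 CPM (SD, n = 3 per group). With that spread the log2 fold change of -1.77 (SE 0.51) did not pass (edgeR adjusted p 0.0650). Without control replicate 1 it was smaller, at -0.97, and passed (edgeR adjusted p 0.0261). It also passed without control replicate 3 (-2.01), with at least 10 counts in every library (-1.82) and by the Wald test of DESeq2 (-1.72, adjusted p 0.0441).

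Hbegf encodes the heparin-binding EGF-like factor, known from migrating keratinocytes at wound edges. It was at 168, 116 and 66.4 CPM in the controls and at 79.4, 44.1 and 81.5 CPM in libraries labelled double cKO. Control replicate 3 lay among the libraries labelled double cKO, so the groups overlapped. The log2 fold change of -0.85 (SE 0.35) did not pass (edgeR adjusted p 0.141), and its 95% interval ran from -1.66 to -0.035. It passed when control replicate 3 was left out (-1.05) and when no genes were filtered (-0.71).

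Tgfa encodes transforming growth factor alpha, a keratinocyte ligand whose loss gives mice with wavy hair. It was at 144, 78.5 and 86.9 CPM in the controls and at 147, 70.3 and 91.0 CPM in libraries labelled double cKO. Replicate 1 was the highest in both groups, and the ranges nearly coincided. The log2 fold change was -0.090 (standard error 0.31; edgeR adjusted p 0.865). Its 95% interval ran from -0.78 to 0.60. Its sign turned in 4 of 17 alternative fits.

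Egfr encodes the receptor that all 6 ligands bind. It was at 384, 387 and 433 CPM in the controls and at 368, 331 and 401 CPM in libraries labelled double cKO, and the groups overlapped. The log2 fold change was -0.20 (95% interval -0.49 to 0.085, edgeR adjusted p 0.308). The antisense gene Egfros overlaps Egfr, with at most 65.9 CPM in a library of 6 months, and the use of strand in counting was not given in the sources used here.

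Erbb2 encodes the partner receptor that has no known ligand of its own. It was at 224, 239 and 281 CPM in the controls and at 249, 277 and 229 CPM in libraries labelled double cKO (log2 fold change -0.053, 95% interval -0.35 to 0.25, edgeR adjusted p 0.814), with a sign that turned in 5 of 17 alternative fits. Erbb3 encodes a receptor with a weak kinase that binds neuregulins and signals through its partners. It was at 296, 276 and 354 CPM in the controls and at 362, 407 and 349 CPM in libraries labelled double cKO, where only replicate 3 lay within the control range. Its log2 fold change of 0.20 (95% interval -0.11 to 0.50) did not pass (edgeR adjusted p 0.346). For all 3 receptors the interval leaves out a change of 2-fold in either direction.

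**Figure D2:**
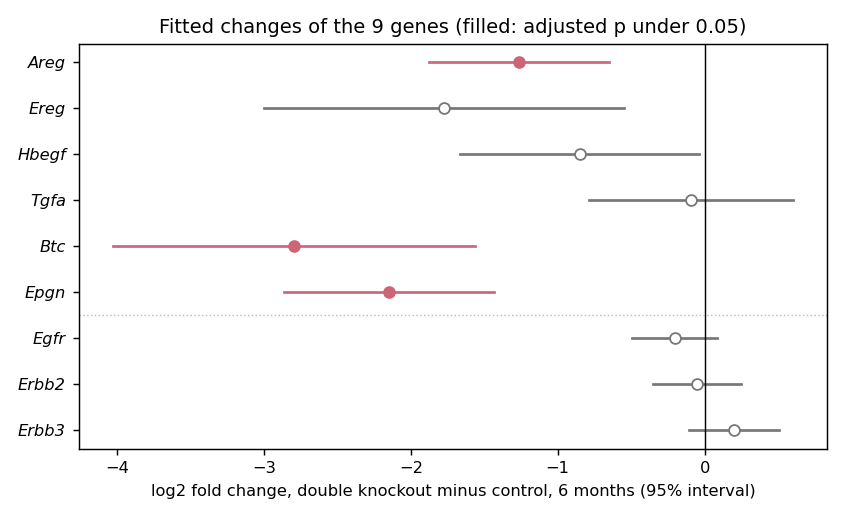
Fitted log2 fold change (x axis) of each gene, libraries labelled double cKO minus control at 6 months, with its 95% interval from the edgeR fit. Filled red points passed an adjusted p of 0.05 (Areg, Btc and Epgn); the 3 receptor genes below the dotted line have the narrowest intervals.

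The 3 ligand genes that fell lie near Ereg in the genome. Position was not used to choose the genes, but 4 of the 6 ligand genes followed belong to this cluster. Epgn (91027464 to 91035215, plus strand), Ereg (91074622 to 91093646, plus), Areg (91139599 to 91148432, plus) and Btc (91357261 to 91402994, minus) lie within 376 kb of chromosome 5 (GRCm38), a known cluster of EGF family ligands. Hbegf is on chromosome 18 (36504929 to 36515805), Tgfa on chromosome 6 (86195223 to 86275719), Egfr and Erbb2 on chromosome 11 (16752203 to 16918158 and 98412470 to 98437716) and Erbb3 on chromosome 10 (128567523 to 128589652). All 4 genes of the chromosome 5 cluster had non-overlapping groups, lower in libraries labelled double cKO, as were 16.3% of all genes tested (22.5% were higher without overlap, 38.7% in either direction). The groups overlapped for the other 5.

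The other genes of that region did not pass the test. Within 1 Mb on either side of the cluster 62 other genes are listed, 25 of them tested, and none passed in either direction, where 14.9% of all genes tested did, with a median log2 fold change of -0.15. Some of these neighbours were low, down to a mean of 0.740 CPM in the higher group. Mthfd2l, a gene of folate metabolism directly before Epgn, was at 9.37 against 7.29 mean CPM (log2 fold change -0.43, edgeR adjusted p 0.277). Parm1, directly after Btc, was at 6.30 against 5.39 mean CPM (-0.28, edgeR adjusted p 0.707). The farthest below 0 of these neighbours were Art3 (-1.61, edgeR adjusted p 0.134) and Rassf6 (-1.34, edgeR adjusted p 0.0557), which were chosen after their values were seen. The chemokine genes Cxcl1 and Cxcl2, which also lie here, were at 1.61 against 1.66 and at 0.789 against 1.62 mean CPM and did not pass. Whether the ligand genes differed from their neighbours as a group was not tested.

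**Figure D3:**
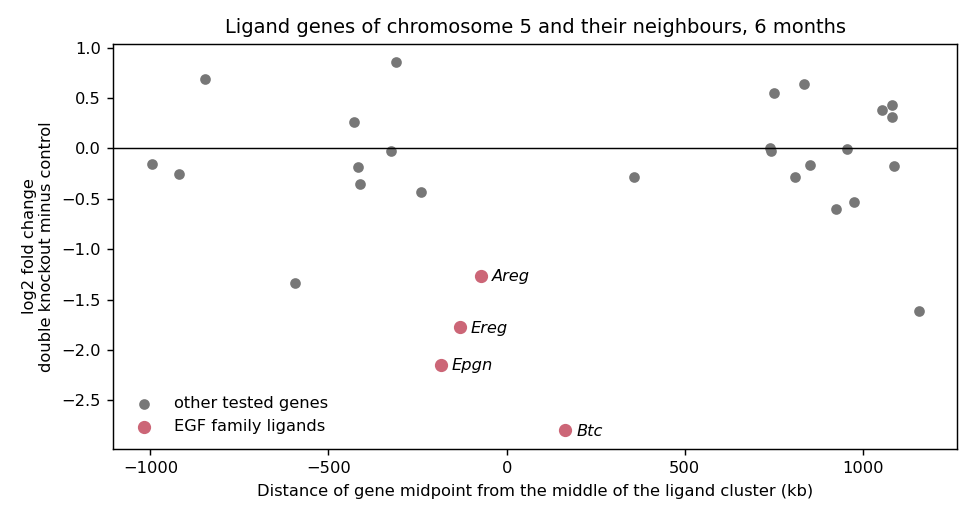
Log2 fold change (y axis, libraries labelled double cKO minus control, 6 months) of the tested genes of the chromosome 5 region against the distance of their midpoint from the middle of the ligand cluster in kb. The 4 ligand genes (red) lie at -2.80 to -1.27; none of the 25 neighbours (grey) passed the threshold.

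Promoters of 6 of the 9 genes were in the RefSeq table of GRCm38.p6; Ereg, Hbegf and Erbb3 were not. The targeted factors bind GC-rich palindromes, so the 250 bases before each start were searched for the AP-2 letters GCCNNNGGC and the AP-1 letters TGANTCA, which both read the same on either strand. Of 32851 promoter windows of this length, 13.7% held the AP-2 letters and 6.75% the AP-1 letters. Among the 6 genes only Tgfa held the AP-2 letters, at 2 places, and none held the AP-1 letters. Areg held TGACGTCA, the letters of a cyclic AMP response element, which 1.55% of the windows hold and which was searched after its sequence was seen. The windows of the 3 ligand genes that fell and of Tgfa are given 5′ to 3′ on the strand of the gene, since they are where the letters of the targeted factors' site were looked for, with matched letters in capitals. They cover chr5:91027267-91027463 (plus strand), chr5:91139349-91139598 (plus), chr5:91402995-91403244 (minus) and chr6:86194972-86195221 (plus), and that of Epgn stops where its first annotated exon begins. A match or its absence describes only these letters in these windows.
Epgn promoter: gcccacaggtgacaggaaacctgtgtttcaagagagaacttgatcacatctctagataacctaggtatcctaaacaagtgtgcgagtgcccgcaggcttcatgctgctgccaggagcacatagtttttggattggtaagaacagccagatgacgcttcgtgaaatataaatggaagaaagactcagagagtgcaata
Areg promoter: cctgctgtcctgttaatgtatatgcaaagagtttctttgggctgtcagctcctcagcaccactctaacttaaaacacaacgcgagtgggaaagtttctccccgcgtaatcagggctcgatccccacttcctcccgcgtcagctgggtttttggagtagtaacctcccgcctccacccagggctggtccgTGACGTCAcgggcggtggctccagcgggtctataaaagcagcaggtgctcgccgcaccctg
Btc promoter: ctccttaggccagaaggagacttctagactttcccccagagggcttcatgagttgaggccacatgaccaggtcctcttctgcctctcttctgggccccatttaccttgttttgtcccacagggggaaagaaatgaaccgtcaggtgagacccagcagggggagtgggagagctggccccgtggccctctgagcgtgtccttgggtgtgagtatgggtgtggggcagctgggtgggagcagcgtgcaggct
Tgfa promoter: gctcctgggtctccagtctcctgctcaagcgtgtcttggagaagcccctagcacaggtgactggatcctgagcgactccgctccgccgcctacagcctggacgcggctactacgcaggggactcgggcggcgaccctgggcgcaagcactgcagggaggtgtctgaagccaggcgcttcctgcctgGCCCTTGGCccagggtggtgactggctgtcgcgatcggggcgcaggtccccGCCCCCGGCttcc

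Per length, the order of the 9 genes differed between the groups. On the scale of CPM per kb of exon (over all exons of a gene), the control means were 126 ± 92.5 for Ereg, 70.6 ± 10.9 for Epgn, 51.3 ± 6.78 for Erbb3 and 49.1 ± 21.3 for Hbegf (SD, n = 3). They were followed by Erbb2 at 47.6 ± 5.66, Egfr at 35.5 ± 2.40, Areg at 33.3 ± 7.38, Btc at 27.9 ± 14.7 and Tgfa at 15.9 ± 5.50. Ereg and Epgn overlapped in their range over the controls, Epgn stood above Erbb3 without overlap (lowest 62.2 against highest 58.9), and Erbb2 above Egfr (lowest 43.0 against highest 38.2). All other neighbours in this order overlapped.

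In the libraries labelled double cKO the receptor genes Erbb3, at 62.0 ± 5.08, and Erbb2, at 48.3 ± 4.64 CPM per kb, came first. Ereg followed at 39.0 ± 7.0, Egfr at 32.4 ± 3.09, Hbegf at 28.8 ± 8.85, Epgn at 16.8 ± 7.13, Tgfa at 15.8 ± 6.07, Areg at 14.5 ± 4.82 and Btc at 4.23 ± 2.38. Only Erbb3 and Erbb2, and Areg and Btc, did not overlap with their neighbour in the order. Erbb2 and Ereg met at 43.9 and 44.03.

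Summed over the 6 ligands, the level per length was 477.5, 265 and 226 in control replicates 1 to 3 and 128, 98.4 and 131 in libraries labelled double cKO. The sum over the 3 receptors was 126, 126 and 151 against 141, 150.1 and 137. The ligand sum was 3.79, 2.11 and 1.49 times the receptor sum in the controls and 0.911, 0.655 and 0.952 times in libraries labelled double cKO. These ratios hold transcripts, not proteins, and were not tested, because the genes were chosen together with earlier results known.

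The make-up of the ligand sum differed for some ligands. Ereg, the largest part in all controls but replicate 3, was 48.6%, 31.6% and 27.6% of it in the controls and 24.2%, 44.8% and 32.1% in libraries labelled double cKO, and Areg 5.18%, 14.2% and 16.5% against 11.9%, 9.47% and 14.4%, so the groups overlapped for both. Epgn was 17.36%, 23.4% and 29.5% in the controls and 17.44%, 8.86% and 14.7% in libraries labelled double cKO, so its groups overlapped slightly. Btc was 9.38%, 7.87% and 7.98% against 2.72%, 7.01% and 1.76%, without overlap. Tgfa was 4.65%, 4.55% and 5.93% in the controls and 17.6%, 11.01% and 10.7% in libraries labelled double cKO, and Hbegf 14.8%, 18.4% and 12.4% against 26.1%, 18.9% and 26.3%. Tgfa and Hbegf thus had a larger share in every library labelled double cKO than in any control, while their own levels overlapped between the groups.

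**Figure D4:**
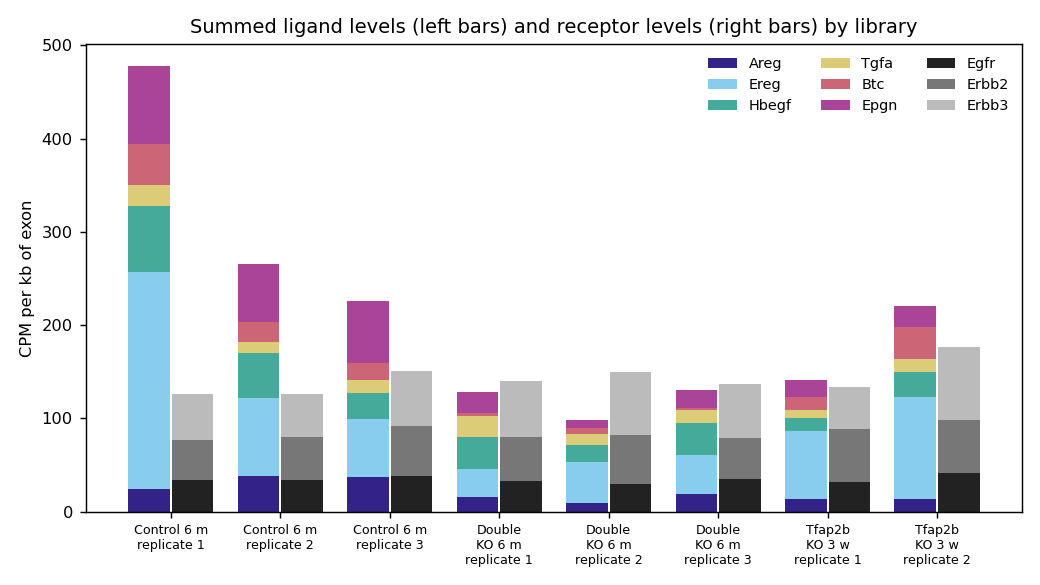
Stacked levels per library in CPM per kb of exon (y axis from 0): the 6 ligands in the left bar and the 3 receptors in the right bar. The ligand bar is taller than the receptor bar in all 3 controls of 6 months and shorter in all 3 libraries labelled double cKO.

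The 2 libraries labelled K14CreTfap2bfl/fl were of another age and entered no test. Areg was at 16.6 and 16.1 CPM and Epgn at 33.7 and 39.9 CPM in them, within the range of the libraries labelled double cKO at 6 months and below every control of 6 months. Ereg, at 303 and 453 CPM, and Btc, at 63.8 and 158 CPM, lay above every library labelled double cKO. Hbegf, at 32.5 and 63.6 CPM, was also below every control of 6 months, the lowest of which was at 66.4 CPM. Tgfa was at 52.3 and 86.7, Egfr at 359 and 474, Erbb2 at 296 and 296 and Erbb3 at 269 and 466 CPM. Replicate 1 held 2556 CPM summed over dermal fibroblast markers and 1949 CPM over adipocyte markers, against 17.3 and 0.320 CPM in replicate 2. In these libraries age and genotype cannot be told apart.

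Beyond the 9 genes, 81 other genes of the pathway were tested, of which 4 rose, 14 fell and 63 did not pass, beside 6.26% of all genes tested that rose and 8.59% that fell. Their median log2 fold change was -0.13, against -0.035 over all genes tested. Of the 4 tested genes in the rest of the ligand and receptor family, 1 fell. Nrg4, a neuregulin that binds ERBB4, was at 14.4, 8.66 and 7.42 CPM in the controls and at 3.33, 1.98 and 2.59 CPM in libraries labelled double cKO (log2 fold change -1.97, edgeR adjusted p 0.00794; 0.0602 with all 8 libraries in one fit). Nrg1, another neuregulin, was at 53.8, 42.3 and 21.2 against 53.2, 16.5 and 38.1 CPM and did not pass (log2 fold change -0.20, edgeR adjusted p 0.795). Egf, the founding ligand, averaged 2.73 against 1.53 CPM, and Nrg2 2.33 against 2.49 CPM, and neither passed. Egf held 26, 55 and 18 counts in the controls over 11275 bp of exon. With odorant receptor densities of 1.61 and 3.19 counts per kb in control replicates 1 and 2, part of its level there can be background. Erbb4 and Nrg3 were too low to be tested: Erbb4 held 19, 33 and 0 counts in the controls, where the odorant receptor density would give 19.9, 39.4 and 1.82, and Nrg3 held 10, 30 and 1, where it would give 11.0, 21.7 and 1.01.

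Of the 13 genes listed for shedding and trafficking of the ligands, 1 rose and 3 fell, beside 6.26% and 8.59% of all genes tested. Nkd2, which carries the transforming growth factor alpha precursor to the cell surface, fell from 14.4 ± 2.97 to 1.57 ± 0.411 CPM (SD, n = 3 per group; log2 fold change -3.16, edgeR adjusted p 0.000527). Timp3, an inhibitor of the shedding proteases, was at 269, 312 and 381 CPM in the controls and at 33.4, 28.6 and 62.0 CPM in libraries labelled double cKO (log2 fold change -3.02, edgeR adjusted p 0.000991). Rhbdf2, which encodes the inactive rhomboid that helps ADAM17 mature, fell from 222 ± 7.43 to 130.2 ± 5.94 CPM (log2 fold change -0.85, edgeR adjusted p 0.00270).

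Among the protease genes Adam10 rose and Adam17 did not pass. Adam10, which sheds betacellulin and Notch, rose from 105 ± 16.0 to 180 ± 16.3 CPM (SD, n = 3 per group; log2 fold change 0.71, edgeR adjusted p 0.0163). Its call did not hold without control replicate 2 or without replicate 2 or 3 of the libraries labelled double cKO, at 0.59 to 0.74. Adam17, the main sheddase of amphiregulin, epiregulin, epigen and transforming growth factor alpha, averaged 134 against 150 CPM and did not pass (log2 fold change 0.088, edgeR adjusted p 0.716). The median over this list was -0.052.

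Of 17 genes for receptor inhibition and turnover 1 fell and none rose, no more than the 8.59% and 6.26% of all genes. Sh3kbp1, an adaptor of receptor endocytosis, fell from 93.9 ± 24.3 to 53.1 ± 6.38 CPM (log2 fold change -0.90, edgeR adjusted p 0.0186), a call lost without replicate 1 or 2 of the libraries labelled double cKO (-0.83 to -0.78). Errfi1, a feedback inhibitor of the receptor, was at 556, 390 and 269 CPM in the controls and at 297, 206 and 256 CPM in libraries labelled double cKO, and did not pass (log2 fold change -0.76, edgeR adjusted p 0.0750). Lrig1, which drives receptor degradation and marks stem cells, averaged 90.3 against 111 CPM and did not pass (edgeR adjusted p 0.481).

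Of 28 adaptor and signal relay genes 1 rose and 2 fell, also no more than those shares of all genes. Map2k1, encoding the kinase MEK1, rose from 20.2 ± 1.52 to 37.4 ± 3.45 CPM (SD, n = 3 per group; log2 fold change 0.81, edgeR adjusted p 0.0137), and lost the call without replicate 1 or 3 of the libraries labelled double cKO (0.76 to 0.89). Mapk3, encoding ERK1, fell from 106 ± 7.62 to 69.4 ± 8.03 CPM (log2 fold change -0.69, edgeR adjusted p 0.0151), and lost the call without any 1 of the libraries labelled double cKO (-0.72 to -0.55). Gab2, a docking protein of receptor signalling, fell from 22.7 ± 2.18 to 9.57 ± 2.33 CPM (log2 fold change -1.31, edgeR adjusted p 0.00725). The other 25 genes, with the adaptor gene Grb2 among them, did not pass, and the median was -0.069.

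In the list of ERK feedback and early target genes 2 of 19 rose and 7 fell, beside 6.26% and 8.59% of all genes, with a median log2 fold change of -0.36. Fosl1, an AP-1 subunit induced through ERK, was at 473, 218 and 158 CPM in the controls and at 74.7, 27.9 and 70.5 CPM in libraries labelled double cKO (log2 fold change -2.37, edgeR adjusted p 0.0391). Control replicate 1 was again the highest control, as it was for Ereg, Btc, Hbegf, Tgfa and Epgn. Ier3, an early response gene, fell from 88.1 ± 11.4 to 24.7 ± 13.7 CPM (SD, n = 3 per group; log2 fold change -1.90, edgeR adjusted p 0.0136). The other 4 that fell, named after their values were seen, were the ERK phosphatase gene Dusp5 (-1.67), the feedback inhibitor genes Spry1 (-1.36) and Spred3 (-1.75) and the early response gene Egr1 (-0.75), with edgeR adjusted p-values of 0.00175 to 0.0333. Dusp4, a phosphatase of ERK, was low in both groups, at 2.91, 3.00 and 0.846 against 0.507, 0.273 and 0.225 CPM (log2 fold change -2.40, edgeR adjusted p 0.0307).

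Members of that list also moved the other way. Ccnd1, encoding cyclin D1, rose from 60.9 ± 6.35 to 112 ± 18.2 CPM (SD, n = 3 per group; log2 fold change 0.80, edgeR adjusted p 0.0135). Etv4, an ETS factor downstream of ERK, rose from 3.47 ± 1.27 to 10.1 ± 4.58 CPM (log2 fold change 1.42, edgeR adjusted p 0.0424). Dusp6, a common readout of ERK activity, was at 124, 125 and 74.4 against 119.9, 65.3 and 82.6 CPM and did not pass (log2 fold change -0.35, edgeR adjusted p 0.384). Fos averaged 1329 against 1227 CPM and did not pass (edgeR adjusted p 0.385).

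Of this list, Fosl1, Dusp4, Etv4, Ier3 and Ccnd1 were followed in the fits with 1 library fewer, and their fold changes kept their direction. Dusp5, Spry1, Spred3 and Egr1 were not followed there. Several calls in this list did not hold in those fits. Fosl1 and Dusp4 lost theirs without control replicate 1 or 2 or without any 1 of the libraries labelled double cKO, at -2.54 to -1.77 and -2.63 to -2.17. Etv4 lost it without control replicate 1 or 2 or without replicate 1 or 2 of the libraries labelled double cKO (1.06 to 1.64). Ier3 lost it without control replicate 1 or replicate 1 of the libraries labelled double cKO (-1.91 to -1.76), and Ccnd1 without control replicate 2 or that same library (0.73 to 0.87).

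**Figure D5:**
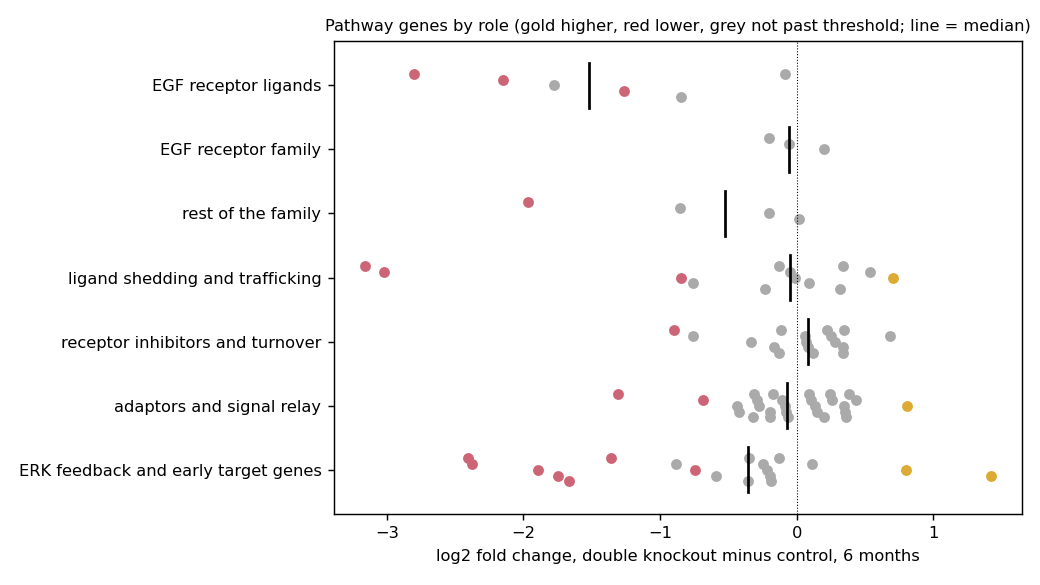
Log2 fold changes (x axis, libraries labelled double cKO minus control, 6 months) of the tested genes of each role, 1 point per gene, with the median of the role as a black line. The ligand genes have the lowest median, -1.52, and in the list of ERK feedback and early target genes 7 of 19 are lower (red) and 2 higher (gold).

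Marker genes of other keratinocyte states differed between the groups beside these genes. Basal keratinocyte markers (5 of 7 higher) summed to 8224 to 10485 CPM in the controls and 15753 to 18754 CPM in libraries labelled double cKO. Among them Krt15 went the other way, without overlap but without passing (1026 against 412 mean CPM, edgeR adjusted p 0.0513). Wound keratinocyte markers (4 of 5 higher) summed to 463 to 723 against 3481 to 4386 CPM, and proliferation markers (5 of 6 higher) to 137 to 227 against 357 to 485 CPM. Of all genes tested, 6.26% were higher and 8.59% lower. Granular and cornified markers summed to 2502 to 4198 against 1362 to 2538 CPM, but only Flg2 of 6 was called lower (2097 against 798 mean CPM), Flg, Ivl, Hrnr and Casp14 had higher means without passing, and the median log2 fold change of the list was 0.17. Sebaceous markers summed to 1123 to 1274 against 543 to 609 CPM, mostly through Scd1 (780 against 193 mean CPM), the 1 of 4 tested that was called lower; Fasn averaged 402 against 372 and Awat2 1.41 against 2.29 CPM, and neither passed. Hair follicle stem cell markers (1 of 6 lower) summed to 255 to 404 against 129 to 338 CPM. None of these lists had a marker at 0 in all 6 libraries. Their part in the levels of the ligand genes was not tested.

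Cells other than keratinocytes can also make these ligands. Dermal fibroblast markers (3 of 6 lower) summed to 53.0 to 157 CPM in the controls and 11.7 to 23.0 CPM in libraries labelled double cKO, macrophage markers (1 of 5 tested lower) to 20.4 to 36.5 against 17.9 to 23.4 CPM, and neutrophil markers to 4.17 to 12.2 against 3.68 to 5.72 CPM. Markers of regulatory T cells and type 2 innate lymphoid cells (1 of 6 lower) summed to 432 to 764 against 546 to 699 CPM, and those of mast cells and basophils to 1.95 to 10.3 against 3.82 to 10.4 CPM. Of all genes tested, 8.59% were lower. Macrophage and neutrophil sums were highest in control replicates 1 and 2, at 33.2 and 36.5 and at 8.22 and 12.2 CPM. These libraries also held the most background in genes of odorant and vomeronasal receptors at 6 months. The part of these cells in the results was not tested either.

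The gene whose profile was most like that of Btc, which fell most of the 9 genes, was Upk3b, a uroplakin gene. Likeness was the root mean square difference of the centred log2(CPM + 0.5) profiles over the 8 libraries, among 13637 protein-coding genes with a mean of at least 1 CPM. Upk3b differed from Btc by 0.35, Slc38a3, a glutamine transporter gene, by 0.36, and Serpina12, a serine protease inhibitor gene, by 0.44. The median over all these genes was 1.51. In libraries labelled double cKO, Upk3b was at only 0.507, 1.43 and 0.451 CPM and Slc38a3 at 0.507, 2.80 and 0.845 CPM. Several of these levels are near the 0.5 CPM added before the log. Serpina12 was at 224, 123.2 and 109.6 CPM in the controls and at 26.1, 62.3 and 22.9 CPM in libraries labelled double cKO. Replicate 1 was highest among the former and replicate 2 among the latter, as for Btc. The choice by likeness over the same libraries favours such a shared order. Ereg was the nearest of the other 8 members, at rank 97 with 0.75, and Epgn, which lies in the same cluster, was at rank 1298 with 1.16.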

How the data were processed

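Total RNA of mouse epidermis was depleted of ribosomal RNA and sequenced as paired ends on an Illumina NovaSeq, per the labels' protocols. The deposited values are whole-number counts per gene, not normalized, with 1 file per sample. The submitters' processing notes name Trimmomatic 0.36, STAR 2.5.2b, featureCounts and Subread 1.5.2, and the builds GRCm38 and GRCh38; the use of strand and of reads that map to several places was not given in the sources used here. Of 49315 identifiers, 49056 (99.5%) were in GENCODE M21 (GRCm38), 44823 with the same start and end, so coordinates are read as GRCm38. Depth was 11318181 to 17746284 counts per library with counts.

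Groups and replicate numbers came from the titles. Counts of 6 months were tested with edgeR 4.0.16 in R 4.3.3 (filterByExpr, TMM, robust glmQLFit, glmQLFTest, prior count 2), with only the 2 groups in the fit. The fit was also run on simulated counts, which lacked the higher background of control replicates 1 and 2 and so could not check its effect. The 3-week Tfap2b libraries were not tested against those of 6 months because the age differs, and the other groups had no counts. CPM used total counts. Alternatives used DESeq2 1.42.0 and limma 3.58.1 (voom), other scalings and filters, and each library left out. The 9 genes and the lists were chosen with earlier results of these data known. From each list the text names up to 3 rises and 3 falls, the largest that passed and that averaged 1 CPM or more in either group, and members given as not past the threshold.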

Additional observations from a re-analysis of the deposited data

How the results depend on the processing

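The number of genes past the threshold at 6 months, 2637, was 4809 without a filter on low counts, 4192 by DESeq2, 585 against a fold change of 1.5, 1548 with all libraries in one fit and 1729 with the replicate number as a block, and lay between 668 (replicate 1 of double cKO left out) and 7544 (control replicate 3 left out) over the 6 fits that left out 1 library. Of the 9 genes 3 were lower; the count was 2 to 4 in the 11 alternatives that kept all libraries and 1 to 5 when 1 library was left out, 5 with control replicate 3 left out, where 22.9% of all genes were lower, and 1 (Epgn) with replicate 1 of double cKO left out, where 1.67% were. None of the 9 was higher in any of the 17 alternatives. Same-numbered libraries did not deviate together (correlations across genes of 0.028, -0.16 and -0.057 for numbers 1, 2 and 3), so the numbers were not taken as pairs. The replicate block changed the call of none of the 9 genes; of the 14 other pathway genes named by rule it changed that of Dusp4 alone. The sign of Tgfa turned without a filter (0.031) and in 3 of the 6 fits that left out 1 library (which spanned -0.38 to 0.24, the lowest reversed value 0.026), and that of Erbb2 with total counts (0.010), without a filter (0.054) and in 3 of those 6 (which spanned -0.11 to 0.13, the lowest reversed value 0.0030). With the odorant receptor density subtracted from the counts, Areg, Btc and Epgn were at -1.33, -2.87 and -2.21 and still past the threshold. Against a fold change of 1.5, Areg and 9 of the 14 pathway genes were not past it; Dusp4 and Etv4 also lost their calls by limma-voom and with all libraries in one fit, and Fosl1 without a filter. Of 390 fitted values of the 23 genes under the alternatives, 326 kept their direction and side of the threshold, 49 lost the threshold, 6 gained it and 9 turned sign. With 166 to 11541 counts per library for the 9 genes, the 3 libraries a group limit the precision.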
